A study of Mus musculus with 4 samples.

Results

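The heavy chains of the axonemal dyneins, the motors that make cilia beat, were compared between mouse embryos homozygous and heterozygous for a GFP allele of Noto, which encodes a homeobox factor made in the node and notochord. The set holds 10 genes: Dnah5, Dnah8, Dnah9 and Dnah11 of the outer dynein arm, and Dnah1, Dnah2, Dnah3, Dnah6, Dnah10 and Dnah12 of the inner arms. Its members were all probes placed on these genes by the probe's accession (8 probes) or by an older name of the gene in the array files (23 probes). This gave 31 of 41174 gene probes and 10 of 27590 genes. The files used the older symbols beginning with Dnahc for 30 of the 31 probes and a clone name for the other, a Dnah12 probe. Another 2 Dnah12 probes bore the name Dnahc7c and were placed by their chromosome.

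Both groups came from embryos at the early headfold stage, labelled ~E7.75, of a NotoGFP line on an Sv129/CD-1 hybrid background. One group was Noto GFP/GFP and the other Noto GFP/+, so the controls also carried 1 GFP allele, although the series' design text speaks of wildtype and mutant samples. The distal piece of each embryo, which holds the node, was cut off, and 120 to 150 pieces were combined in a pool. The labels differ among themselves on the size of this piece. RNA of a homozygous and a heterozygous pool was labelled and hybridised together on 1 Agilent 2-colour array, and a second array repeated this with the dyes exchanged. The 4 samples are therefore 2 technical replicates of 1 pool per genotype, so that no significance test was possible and no p-value is given. Each value below is the mean of the 2 log2 ratios, homozygote over heterozygote, with the SD over the 2 arrays (n = 2), which covers technical spread only.

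Each axonemal heavy chain carries the ATPase ring and the microtubule-binding stalk of a dynein, and dynein arms fixed to 1 microtubule doublet pull on the next to bend the cilium. Outer arms set the beat frequency and power, and inner arms shape the bend. In the mouse node, single motile cilia on the pit cells rotate and drive a leftward fluid flow that breaks left-right symmetry. Dnah11, also called left-right dynein, is the gene mutated in the inversus viscerum mouse, and loss of Dnah5 also disturbs left-right asymmetry.

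A call required a ratio of 1.5-fold or more, which is 0.58 in log2 units, on both arrays and with 1 sign. Of the 10 heavy chains, 3 could not be measured, and 0 of the other 7 were called lower or higher in the homozygous pool, against 2.37% lower and 0.0592% higher among all 18577 measured genes. Of the 7, 5 had ratios below 0 on both arrays (34.0% of all measured genes), from Dnah9 at 0.754-fold to Dnah1 at 0.892-fold. Dnah8 lay above 0 on both arrays (1.25-fold; 25.7% of all measured genes lay above), and Dnah11 had opposite signs on the arrays (1.12-fold). The spread between the arrays was of the same order as most of these differences.

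A probe counted as measured when its spot was well above background, by the scanner software's flag, in at least 1 genotype on both arrays. Of the 31 heavy chain probes, 11 were measured, 7 passed on array 1 only and 13 on neither array. The 11 measured probes belonged to Dnah1 (2), Dnah2 (3), Dnah5 (1), Dnah6 (1), Dnah8 (1), Dnah9 (2) and Dnah11 (1). No probe of Dnah3, Dnah10 or Dnah12 was measured. Over both arrays and genotypes, the mean log2 of foreground over local background lay between 1.71 and 4.43 for the measured probes. It lay between 1.15 and 1.64 for those that passed on array 1 only and between 0.65 and 1.33 for those that passed on neither. All 11 measured probes were dimmer than the median measured probe of the array.

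The following 60-base probe sequences, copied from the deposited array files, show what the probes of these genes look like, with measured and unmeasured probes of Dnah1 and Dnah6 and unmeasured ones of Dnah10 and Dnah5. They read 5′ to 3′ in lower case, as on the array. The first 3 were measured and lie in 1 stretch of genome. The next 4 cover more than 60 bases of genome, so each joins 2 or more stretches of it, and none was measured. Of the 27 probes that lie in 1 stretch, 11 were measured, so 16 of these were not measured either. The last sequence lies in 1 stretch far upstream in Dnah5 and was above background on array 1 only.
Dnah1 A_52_P456714: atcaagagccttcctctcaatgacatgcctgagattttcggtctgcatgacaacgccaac
Dnah1 A_51_P368237: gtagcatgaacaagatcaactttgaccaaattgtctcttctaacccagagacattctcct
Dnah6 A_51_P121134: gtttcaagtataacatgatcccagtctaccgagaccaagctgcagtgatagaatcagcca
Dnah1 A_52_P113861: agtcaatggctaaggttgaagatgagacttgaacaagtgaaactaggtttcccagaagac
Dnah1 A_51_P235174: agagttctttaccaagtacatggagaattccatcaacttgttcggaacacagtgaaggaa
Dnah6 A_51_P154618: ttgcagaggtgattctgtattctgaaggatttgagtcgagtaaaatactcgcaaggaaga
Dnah10 A_51_P251468: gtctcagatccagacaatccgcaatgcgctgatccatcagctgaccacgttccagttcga
Dnah5 A_52_P548463: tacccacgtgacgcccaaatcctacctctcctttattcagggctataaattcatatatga

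On mouse build mm8, as the files give it, the measured Dnah1 probes lie at chr14:30091518-30091577 and chr14:30137854-30137913 on the minus strand, and the measured Dnah6 probe at chr6:72951889-72951948 on the minus strand. The joined Dnah1 probes span chr14:30115062-30115212 and chr14:30115604-30115757 on the minus strand. The joined Dnah6 probe spans chr6:73065271-73068124 on the minus strand, and that of Dnah10 chr5:125066894-125068067 on the plus strand. The upstream Dnah5 probe lies at chr15:28332486-28332545 on the plus strand. Exon, intron and UTR positions of the probes were not examined, since no annotation of that build was used here.

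In each of the 7 measured genes the probe nearest the 3′ end of the gene was measured. Over all 10 genes, 7 of the 10 most 3′ probes were measured, 2 passed on array 1 only and 1 on neither array. Of the other 19 probes on the strand of the gene, 3 were measured, 5 passed on array 1 only and 11 on neither. The 3 that were measured are a second probe each of Dnah1, Dnah2 and Dnah9. That of Dnah1 lies 46.3 kb upstream of the most 3′ probe, beyond the 2 unmeasured Dnah1 probes, and the most 3′ probes of Dnah3, Dnah10 and Dnah12 were not measured. The remaining 2 probes lie on the opposite strand to their gene, and 1 of them, in Dnah2, was measured. For Dnah3 the 3′ end was taken from the strand of its probes.

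**Figure D1:**
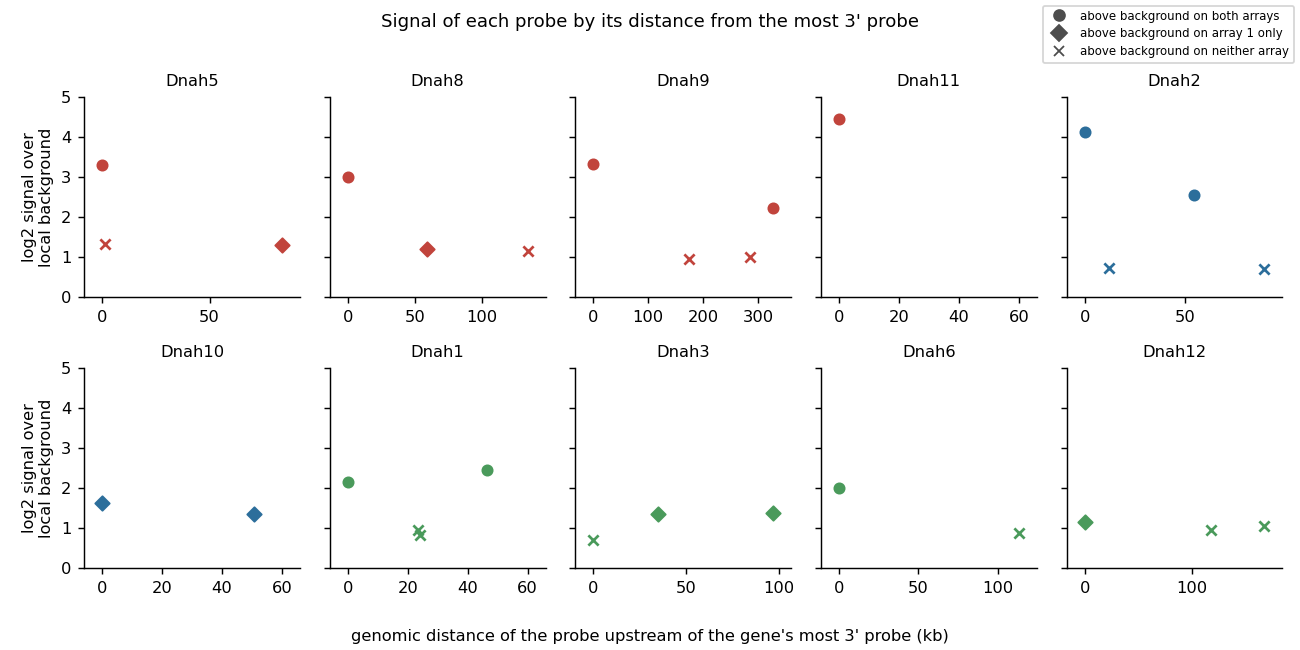
Mean log2 of foreground over local background (y axis, over 2 arrays and both genotypes) for the 29 heavy chain probes on the strand of their gene, against genomic distance in kb upstream of the gene's most 3′ probe (x axis). Circles mark probes above background on both arrays, diamonds on array 1 only and crosses on neither; red is outer arm, blue 2-headed inner arm and green single-headed inner arm, and a circle stands at 0 kb in 7 of the 10 panels. Signals of different probes are shown for their passing of background and cannot be ranked, because spot brightness depends on the probe.

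The probes also differed in base composition, which was not separated from position. GC content ran from 36.7% to 51.7% with a median of 45.0% in the 11 measured probes, and from 18.3% to 53.3% with a median of 40.85% in the 20 others. The heavy chains are related in sequence, so probe overlap was checked. The longest run of bases that any member probe shared with a probe of another heavy chain gene was 11 of 60, and the shortest such maximum was 8. The brightness of a spot also depends on its probe, so levels are compared below only between samples of the same probe.

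The outer arm chains are described first. A normalised level here is the log2 intensity of 1 sample on 1 array after normalisation within and between arrays. Dnah9, an outer arm chain found towards the tip of airway cilia, had levels of 8.77 and 8.89 in the homozygote on arrays 1 and 2 and of 9.03 and 9.44 in the heterozygote at its most 3′ probe. Both homozygote levels thus lay below both heterozygote levels. The log2 ratio was -0.26 on array 1 and -0.55 on array 2, a mean of -0.41 ± 0.21, or 0.754-fold. The second measured Dnah9 probe, A_51_P360338, about 328 kb upstream, had levels of 8.02 and 7.52 in the homozygote and 8.09 and 7.85 in the heterozygote. These overlapped, and its log2 ratio was -0.20 ± 0.18 (-0.07 and -0.33 on arrays 1 and 2). The 2 measured Dnah9 probes shared their direction. The 3 unmeasured ones, A_52_P188874, A_52_P124488 and the opposite-strand A_52_P255188, had ratios of -0.06 ± 0.09, 0.12 ± 0.23 and 0.04 ± 0.26.

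Dnah5, a chain found along the whole outer arm row, had levels of 8.97 and 8.79 in the homozygote and 9.07 and 9.24 in the heterozygote. The groups did not overlap. The log2 ratio was -0.09 on array 1 and -0.45 on array 2, with a mean of -0.27 ± 0.26 (0.828-fold), so that the SD was about as large as the difference. The unmeasured Dnah5 probes A_52_P548463 and A_51_P175027 had ratios of -0.04 ± 0.03 and -0.13 ± 0.17.

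Dnah11 had levels of 10.53 and 10.30 in the homozygote and 10.17 and 10.32 in the heterozygote. The groups overlapped: the homozygote was higher on array 1 and level with the heterozygote on array 2. The log2 ratio of 0.17 ± 0.27 (0.36 and -0.02 on the 2 arrays) was smaller than its SD. The array held 1 probe for this gene.

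Dnah8, the outer arm chain best known from sperm flagella, had levels of 8.72 and 8.94 in the homozygote and 8.27 and 8.74 in the heterozygote. The homozygote was higher on each array, but the groups overlapped, since the heterozygote on array 2 exceeded the homozygote on array 1. The log2 ratio was 0.32 ± 0.18 (0.45 and 0.19 on the 2 arrays), or 1.25-fold. It was the only gene of the 7 above 0 on both arrays. The 2 other Dnah8 probes were not measured, at -0.16 ± 0.06 and -0.25 ± 0.04, below 0 on both arrays.

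Over the outer arm, 3 of the 5 measured probes lay below 0 on both arrays, 1 above and 1 on opposite sides. The median log2 ratio of the probes was -0.20 ± 0.18, and that of the 4 genes was -0.05 ± 0.27, with a range from -0.41 to 0.32. The 4 outer arm chains thus did not share a direction.

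**Figure D2:**
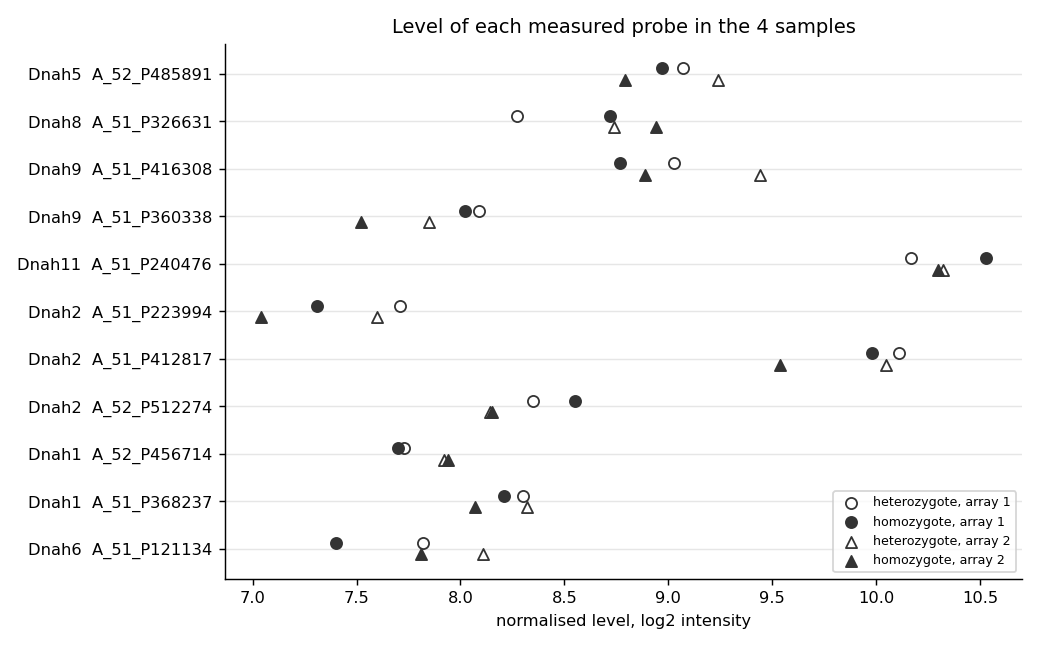
Normalised level (x axis, log2 intensity) of each of the 11 measured heavy chain probes (rows) in the 4 samples: filled symbols are the homozygote and open symbols the heterozygote, circles array 1 and triangles array 2. In 6 rows both filled symbols lie left of both open ones, and in no row right of both. Of all measured probes, 14.7% lay left and 12.2% right, and of those dimmer than the median 20.1% lay left. The opposite-strand Dnah2 probe A_51_P223994 is 1 of the 6. Rows cannot be compared with each other because probes differ in brightness.

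Among the inner arm chains, Dnah2 is a heavy chain of the 2-headed inner arm dynein, for which Dnah10 is the partner chain. The most 3′ Dnah2 probe, A_51_P412817, had levels of 9.98 and 9.54 in the homozygote and 10.11 and 10.05 in the heterozygote. The groups did not overlap, and the log2 ratio was -0.32 ± 0.26 (-0.14 and -0.51 on the 2 arrays), or 0.80-fold. A second probe on the strand of the gene, A_52_P512274, had levels of 8.55 and 8.15 in the homozygote and 8.35 and 8.14 in the heterozygote. These overlapped, at a log2 ratio of 0.10 ± 0.14 (0.20 and 0.01), so the 2 Dnah2 probes on the gene's strand disagreed in sign.

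The third measured Dnah2 probe, A_51_P223994, lies on the opposite strand at chr11:69361596-69361655 (mm8, plus strand) and was designed on a cDNA clone, so its signal need not come from Dnah2 messenger RNA. Its levels were 7.31 and 7.04 in the homozygote and 7.71 and 7.60 in the heterozygote, with no overlap. It had the lowest ratio of all 11 measured probes, -0.48 ± 0.12 (-0.40 and -0.57). It was also the only one of them well above background on 1 array in the homozygote. The 2 unmeasured Dnah2 probes, A_52_P438240 and A_51_P520832, had ratios of -0.01 ± 0.05 and 0.17 ± 0.09, the latter above 0 on both arrays.

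Dnah10 had 2 probes, both above background on array 1 only, with log2 ratios of -0.09 ± 0.03 at its most 3′ probe and -0.04 ± 0.23 at the joined probe. The partner of Dnah2 therefore has no measured value.

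Of the single-headed inner arm chains, Dnah6 had levels of 7.40 and 7.81 in the homozygote and 7.82 and 8.11 in the heterozygote at its measured probe. The groups did not overlap by a narrow margin, between the homozygote on array 2 and the heterozygote on array 1. The log2 ratio was -0.36 ± 0.08 (-0.42 and -0.30), or 0.778-fold, with the smallest SD of the 7 genes. Its foreground intensity was 182.0 over a background of 59.0 in the homozygote on array 1 and 204.5 over 46.0 in the heterozygote, so that the background correction bears on it. With the scanner software's own log ratios the value was -0.55 ± 0.14, and with the deposited value table -0.53 ± 0.17. The unmeasured joined probe, A_51_P154618, lay at 0.08 ± 0.06, above 0 on both arrays.

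Dnah1, a single-headed inner arm chain needed for sperm flagella, had levels of 8.21 and 8.07 in the homozygote and 8.30 and 8.32 in the heterozygote at its brighter probe, A_51_P368237. The groups did not overlap, and the log2 ratio was -0.17 ± 0.11 (-0.08 and -0.25), or 0.892-fold. The most 3′ probe, A_52_P456714, had levels of 7.70 and 7.94 in the homozygote and 7.73 and 7.92 in the heterozygote, which overlapped. Its log2 ratio was 0.00 ± 0.03, so the value for Dnah1 depends on the probe. The unmeasured joined probes, A_52_P113861 and A_51_P235174, lay at 0.07 ± 0.10 and 0.01 ± 0.23.

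Dnah3 and Dnah12 had 3 probes each and none was measured. The Dnah3 probes had log2 ratios of -0.03 ± 0.16, -0.09 ± 0.27 and -0.19 ± 0.19. The Dnah12 probes lay at -0.33 ± 0.16 for the most 3′ one, which passed on array 1 only, and at 0.01 ± 0.06 and -0.05 ± 0.02 for the other two. Below 0 on both arrays were the most 3′ Dnah12 probe (-0.22 and -0.45), A_52_P650361 of Dnah12 (-0.07 and -0.04) and A_52_P659544 of Dnah3 (-0.05 and -0.32). The others had opposite signs on the arrays. Whether a difference in either gene could be detected at this signal was not tested.

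Over the inner arms, 4 of the 6 measured probes lay below 0 on both arrays, 1 above and 1 on opposite sides, with a median of -0.24 ± 0.12. The opposite-strand Dnah2 probe is 1 of the 4. With the filter required of both genotypes, which drops that probe, the inner arm median was -0.17 ± 0.11. The 3 measured inner arm genes had a median of -0.32 ± 0.12 and ranged from -0.36 to -0.17. The probe medians of the inner and outer arms differed by less than the SD of either, and the gene medians by about the SD of the outer arm genes. The difference was not tested.

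**Figure D3:**
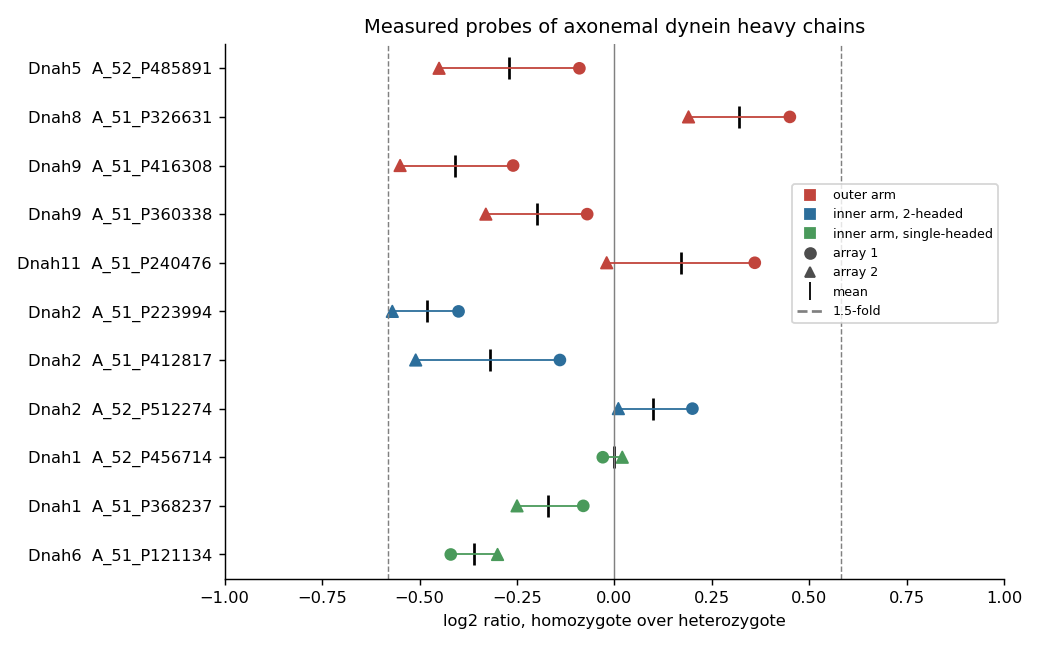
Log2 ratio, homozygote over heterozygote (x axis), of the 11 measured heavy chain probes (rows, outer arm in red, 2-headed inner arm in blue, single-headed inner arm in green) on array 1 (circles) and array 2 (triangles), with the mean as a black tick and dashed lines at 1.5-fold, 0.58 on the log2 scale. All points lie inside the dashed lines, 7 rows lie below 0 on both arrays and 2 rows above. Among all measured probes, 30.7% were below 0 on both arrays and 30.4% above.

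Of the 11 measured heavy chain probes, 0 were called lower and 0 higher, against 2.02% lower and 0.0865% higher among all 27734 measured probes. Read against this background, a count of 0 is no result about the heavy chains. Among the measured probes dimmer than the median, as all 11 were, 3.21% were called lower. At 1.3-fold, 1 of the 11 passed, the opposite-strand Dnah2 probe, against 4.34% of all measured probes.

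Without the threshold, 7 of the 11 heavy chain probes were below 0 on both arrays and 2 above 0 on both. Among all measured probes 30.7% were below 0 on both arrays and 30.4% above. Dim probes leaned lower in general: among the measured probes dimmer than the median, 37.0% were below 0 on both arrays. Both homozygote levels were below both heterozygote levels for 6 of the 11 heavy chain probes, against 14.7% of all measured probes and 20.1% of the dimmer ones, and the reverse held for 0 of the 11, against 12.2% of all. The mean was farther from 0 than the SD for 8 of the 11, against 51.1% of all. The median over the 11 probes was -0.20 ± 0.15 and over the 7 genes -0.27 ± 0.15, against 0.00 over all measured probes and -0.02 over all measured genes. The opposite-strand Dnah2 probe is among the 7, the 6 and the 8. It passed the filter on both arrays only through the heterozygote, where it was higher. With the filter required of both genotypes, 10 heavy chain probes were measured, at a median of -0.18 ± 0.14. All these values describe 1 pool per genotype and were not tested.

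**Figure D4:**
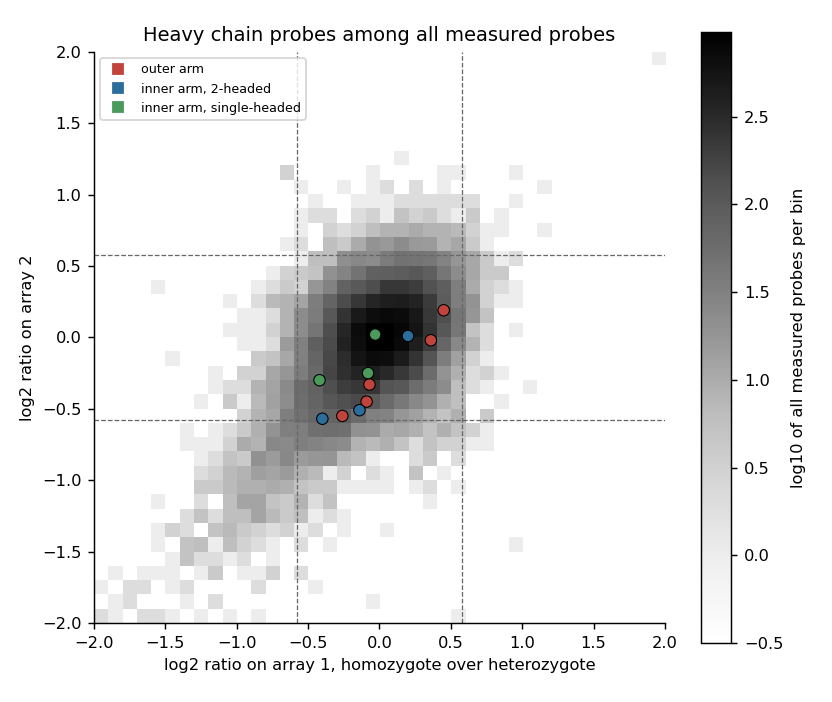
Log2 ratio on array 1 (x axis) against array 2 (y axis), homozygote over heterozygote, for all 27734 measured probes as grey bins (darker for more probes, on a log10 scale; values beyond the axes are put in the edge bins) and for the 11 heavy chain probes as coloured points. Dashed lines mark 1.5-fold, and no heavy chain point lies past both lines in the same direction, where 559 probes of the array lie lower and 24 higher.

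These values differed between the 2 arrays. With 1 array for each dye order, a dye effect and another difference between the arrays cannot be told apart. The median log2 ratio of the 11 probes was -0.08 on array 1, where the homozygote carried Cy5, and -0.30 on array 2, where it carried Cy3. The part of the ratio that followed the dye or the array, red over green, was above 0 in 9 of the 11 probes. Its median was 0.13, against 52.6% above 0 and a median of 0.01 over all measured probes. The same part was 0.19 for Dnah2 and Dnah11, 0.18 for Dnah5, 0.15 for Dnah9 and 0.13 for Dnah8, but -0.06 for Dnah6. A dye effect cancels in the mean of the 2 arrays and widens the SD.

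The direction of the genes was compared across 12 other settings of the processing, including either array alone. Dnah2, Dnah5, Dnah6 and Dnah9 lay below 0 in 12 of 12, and Dnah8 above 0 in 12 of 12. Dnah1 lay below 0 in 11 and at 0.00 in the remaining one, and Dnah11 above 0 in 11 and at -0.02 on array 2 alone. The settings share the same 2 arrays, and some leave the value of a measured probe unchanged by construction, so they are no independent evidence.

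**Figure D5:**
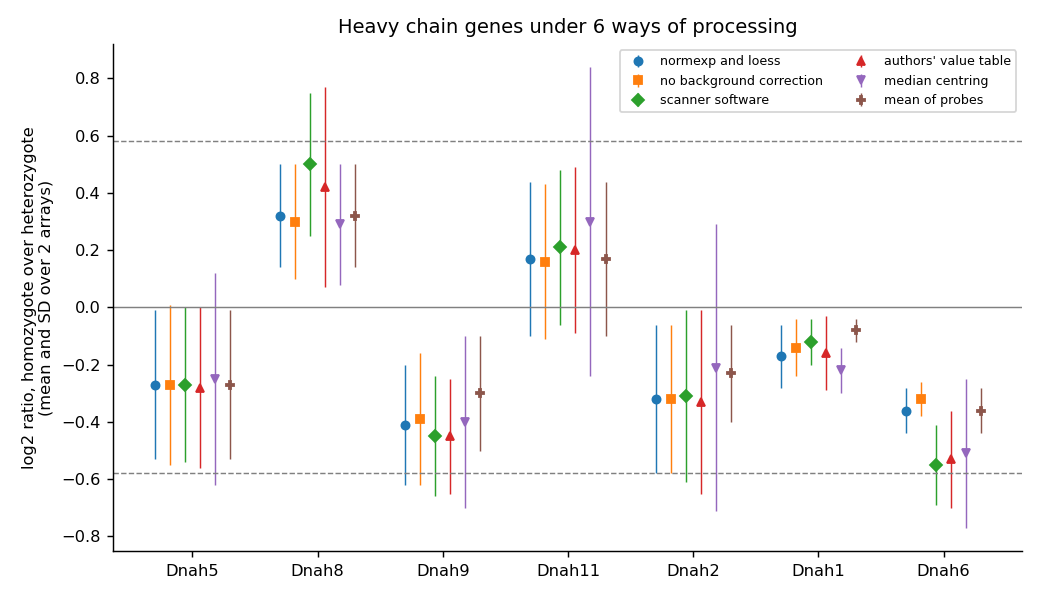
Log2 ratio, homozygote over heterozygote (y axis, mean with the SD over 2 arrays as bars), of the 7 measured heavy chain genes (x axis) under 6 ways of processing, with dashed lines at 1.5-fold. Dnah9, Dnah5, Dnah2 and Dnah6 stay below 0 and Dnah8 above it in all 6, and the means of Dnah6 run from -0.55 to -0.32.

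The other dyneins give the setting of these values. Of the 5 further axonemal heavy chains, Dnah7a, Dnah7b, Dnah14 and Dnah17 were not measured, and Dnah7c lay at -0.13 ± 0.01. The heavy chains of cytoplasmic dyneins, which carry cargo along microtubules, lay above 0 on both arrays: Dync2h1, the motor of retrograde intraflagellar transport, at 0.35 ± 0.22 and Dync1h1 at 0.21 ± 0.19. The 6 measured Dync2h1 probes ranged from -0.51 to 0.50, against -0.48 to 0.10 over the 3 measured Dnah2 probes.

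Of the intermediate and light chains and docking factors that complete the arms, 17 of 22 genes on the array were measured, with 1 called lower and 0 higher, against 2.37% and 0.0592% of all measured genes, and a median of -0.17 ± 0.04. The one called was Dynlrb2, a roadblock-type light chain, at -0.95 ± 0.04 (-0.92 and -0.98), or 0.517-fold. The docking factor Armc4 lay at 0.35 ± 0.23. Of the factors that assemble dynein arms in the cytoplasm, 18 of 19 were measured and 0 were called in either direction, with a median of -0.04 ± 0.06. The lowest of them were Zmynd10 at -0.56 ± 0.00 and Dnaaf1 at -0.50 ± 0.01, both short of 1.5-fold on each array. Their SD over the arrays was smaller than that of each measured heavy chain gene, which ran from 0.08 to 0.27.

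Foxj1, the transcription factor that switches on motile cilium genes, lay at -0.52 ± 0.09 (-0.59 and -0.46), and was not called. Rfx2, Rfx3 and Rfx4, partners in ciliary gene expression, lay at 0.10 ± 0.07, 0.02 ± 0.01 and -0.09 ± 0.16. The level of Noto itself was not analysed here.

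The labelled tissue was checked with markers. All 8 node and notochord markers were measured, with 0 called and a median of -0.06 ± 0.02. Of all measured genes 2.37% were called lower and 0.0592% higher, so this count of 0 is no result about the node. Their mean level, averaged over the genes before taking log2, lay between 13.90 and 13.97 in the homozygote and between 13.77 and 13.92 in the heterozygote. Among the 8, Foxj1 lay at -0.52 ± 0.09, Lefty1 at -0.51 ± 0.20, Shh at -0.44 ± 0.07 and T at 0.33 ± 0.02. The rest lay nearer 0: Foxa2 at 0.10 ± 0.29, Chrd at 0.08 ± 0.03, Nodal at -0.03 ± 0.05 and Dand5 at -0.09 ± 0.05. In whole tissue pieces, fewer node cells and less RNA per cell cannot be told apart.

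Markers of other cell types moved in part. The counts called below stand against 2.37% lower and 0.0592% higher among all measured genes, so a count of 0 in a short list is no result. Of the 5 measured blood markers, 3 were called lower, all globins (Hba-a1 at -1.05 ± 0.18, Hba-a2 at -0.86 ± 0.08 and Hbb-bt at -1.36 ± 0.07), whereas the erythroid genes Gata1 and Alas2 lay at 0.21 ± 0.11 and -0.09 ± 0.01. The list median was -0.86 ± 0.08, and the mean level was 10.26 to 10.64 in the homozygote against 11.24 to 11.69 in the heterozygote. The 5 decidua and trophoblast markers went both ways, with a median of -0.31 ± 0.08: Prl8a2 was called higher at 1.11 ± 0.03 and Prl3d1 lay at 0.36 ± 0.09, but Plet1, Hand1 and Tfap2c lay at -0.53 ± 0.18, -0.33 ± 0.15 and -0.31 ± 0.03. Their mean level was 11.58 to 11.78 in the homozygote against 11.96 in both heterozygote samples. Of the 4 cardiac markers, 1 was called lower, Nppa at -0.61 ± 0.03, and Nkx2-5 lay at -0.28 ± 0.20. The list median was -0.17 ± 0.16 and the mean level 13.79 to 13.88 against 13.73 to 13.78. Of the 6 visceral endoderm markers 0 were called, with a median of 0.02 ± 0.18 and a mean level of 14.21 to 14.24 against 14.13 to 14.26. Farthest from 0 among them were Cubn at 0.24 ± 0.18 and Apoa1 at -0.13 ± 0.37. Of the multiciliated cell markers, Ccno and Deup1 were measured, at -0.25 ± 0.02 and 0.30 ± 0.33, and no probe was found for Mcidas or Gmnc. Scgb1a1, which stood in the same list but marks club cells of the airway, lay at -0.04 ± 0.04. The part of these cell types in the heavy chain values was not tested.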

How the data were processed

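Per the file headers, the authors' scanner software was Agilent Feature Extraction 9.5.3.1, which the submitters' processing notes also name. The deposited files hold foreground and background intensity per spot, a log10 ratio of red over green, and flags for spots above background, saturated or outlying. A value table that the authors deposited has a column for each sample, a floor of 15 and column medians of 109.6, 110.6, 95.1 and 96.2. Its ratios correlated with the log10 ratios at 0.992 and 0.957 over measured probes. Its scale and centring are not given in the sources used here.

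The 2 samples of an array share identical scanner files, so each array was read once. With limma 3.58.1 in R 4.3.3, intensities were corrected by normexp (offset 50) and normalised by loess within each array, with controls at weight 0. Outlier spots (179 and 165) were dropped. Array 2 was turned so that both ratios read homozygote over heterozygote, and levels were scaled by Aquantile. A gene took its brightest measured probe. On the arrays, 64.0% to 81.5% of 43379 gene spots per sample were well above background and 0 were saturated. By the scanner software's own statistics, spiked-in controls gave slopes of 0.809 and 0.705 of observed on expected log ratio, so its ratios understate the expected ones. How far the ratios used here do so was not examined. Precision is limited by there being 2 arrays.

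Names were updated through a RefSeq table (GRCm38.p6, names and chromosomes only), which matched 33121 probes, and 8053 kept the name in the file. Gene strands came from a separate promoter reference. Summaries and plots were made in Python 3.11.15 (pandas 2.3.3, numpy 2.4.6, matplotlib 3.10.9). The calling step was tested on simulated data, with changes larger than 1.5-fold put only into spots brighter than the median gene spot. The recovery of changes as small as those of the heavy chains, or of changes in dimmer spots, was not tested. Named are every heavy chain probe and, from each other list, called genes or, with fewer than 2, those farthest from 0; further node, regulator and marker genes were added after their values were seen. The members and lists were chosen with earlier results of these data known.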

Additional observations from a re-analysis of the deposited data

How the results depend on the processing

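The counts of heavy chain probes and genes called lower or higher stayed at 0 under each alternative but one. At 1.3-fold, 1 probe was called lower, the opposite-strand Dnah2 probe, against 4.34% of all measured probes. Of all measured genes, 4.94% were called lower at 1.3-fold. Of all measured probes, 3.25% were called lower with the scanner software's ratios, 2.98% with the deposited value table and 0.433% at 2-fold. The shares called higher were 0.923%, 0.885% and 0.00721%. Against shares this small, counts of 0 among 11 probes or 7 genes are no result about the heavy chains. Without the filter on dim probes the median over all 31 probes was -0.05, over outer arm probes -0.10 and over inner arm probes -0.04. Leaving out each array in turn, the median ran from -0.30 to -0.08 for the 11 measured heavy chain probes and from -0.30 to -0.09 for the heavy chain genes. It ran from -0.33 to -0.07 for outer arm probes and from -0.27 to -0.11 for inner arm probes. With array 2 left unturned, which shows what follows the dye or differs between the arrays, the median was 0.13 for the measured heavy chain probes. It was 0.15 for outer arm probes, 0.08 for inner arm probes and 0.15 for genes. Median centring moved the median of all 27734 measured probes of the array by 0.13 (0.35 on array 1 and -0.12 on array 2), and Dnah6 then lay at -0.51. Among single genes, Dnah11 changed sign, to -0.02 on array 2 alone, and Dnah1 lay at 0.00 with its most 3′ probe. The opposite-strand Dnah2 probe lay at -0.94 with the scanner software's ratios. The cause of these moves was not tested. After seeing the data, 2 alternatives were added: keeping only the most 3′ probes, and dropping opposite-strand probes and those designed on RIKEN clones. Under each, the outer arm probe median was -0.05 in place of -0.20, as 1 Dnah9 probe drops out. No paired analysis was possible because nothing was tested: replicate numbers 1 and 2 stand for arrays of the same pools. Low signal is a further limit, as 20 of 31 probes were not measured on both arrays.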
